A study of Mus musculus with 6 samples.

Results

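*Sesn1*, *Sesn2*, *Sesn3*, *Ddit4*, *Tigar*, *Zmat3*, *Ddb2*, *Xpc*, *Polk* and *Aen* were grouped as targets of the transcription factor p53 that act in nutrient sensing, metabolism, DNA repair and damage tolerance. Whether p53 induces each of these genes in mouse B cells was not tested. They were chosen by gene symbol and are 10 of the 55421 genes in the deposited table. RNA was measured in splenic B cells kept in culture for 24 h with 5 μg/ml LPS plus 5 ng/ml IL-4 and then sorted, in 3 WT and 3 hnRNPL-deficient libraries that the study's methods describe as biological replicates. hnRNPL-deficient cells carried CD21-cre and the loxP-flanked *Hnrnpl* alleles (hnRNPL F/F CD21-cre), while WT cells carried CD21-cre alone, and by the study's methods both also carried the *Rosa* mT/mG reporter, so that GFP+ cells, those with a history of cre activity, could be sorted. The mice were C57BL6/J males and females older than 6 weeks. CD21-cre acts in mature B cells, and cells that escape the GFP+ gate are not represented. *Hnrnpl* itself was at 24708 ± 761 normalized counts in WT against 1664 ± 459 in the hnRNPL-deficient libraries (SD, n = 3 each), a log2 change of -3.93.

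p53 is stabilized by DNA damage and other stress, and induces genes that stop the cell cycle, trigger death, repair DNA or restrain metabolism. The sestrins (*Sesn1*, *Sesn2*, *Sesn3*) are proteins that bind the GATOR2 complex and thereby restrain mTORC1, the kinase that drives growth in activated B cells. *Ddit4* encodes REDD1, which restrains mTORC1 through the TSC complex, and *Tigar* encodes a phosphatase that lowers fructose-2,6-bisphosphate and so diverts glucose into the pentose phosphate pathway. *Ddb2* and *Xpc* recognize helix-distorting lesions for nucleotide excision repair, *Polk* encodes a translesion DNA polymerase, *Zmat3* an RNA-binding zinc finger protein and *Aen* an apoptosis-enhancing nuclease. Sestrin and REDD1 genes also respond to FoxO factors, ATF4 or hypoxia, so p53 is not their sole known inducer.

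On GRCm38 (mm10) the genes lie as follows, with the strand in parentheses. The sestrin genes are *Sesn1* at chr10:41809935-41908424 (plus), *Sesn2* at chr4:132492032-132510501 (minus) and *Sesn3* at chr9:14275067-14333101 (plus). The metabolic regulators are *Ddit4* at chr10:59949669-59951834 (minus) and *Tigar* at chr6:127085116-127109557 (minus). The repair and damage tolerance genes are *Ddb2* at chr2:91211572-91236982 (minus), *Xpc* at chr6:91489305-91515888 (minus) and *Polk* at chr13:96480690-96542579 (minus), and the remaining genes are *Zmat3* at chr3:32334792-32366014 (minus) and *Aen* at chr7:78895854-78911209 (plus). Values are read counts over the annotated exons of each gene.

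The stretches just upstream of annotated starts were read for short sequence motifs. RefSeq windows on GRCm38.p6, 250 bases before to 50 bases after each start, were found for 7 genes (10 windows). *Zmat3*, *Ddb2* and *Xpc* had no window, so nothing is said of their promoters. Whether the internal starts are used as promoters in these cells was not tested. The 10-base p53 decamer, which pairs up in full p53 sites, matched on either strand in 4 of the 10 windows, from *Sesn1*, *Polk* and *Aen*, against 8.36% of 32851 windows genome-wide. The 2 windows of *Aen* overlap and hold the same decamer and the same CCAAT boxes, so the windows are not independent. The decamers of *Sesn1* and *Polk* lie in windows of internal starts. The other window of each of these genes, which for *Polk* spans the annotated start of the gene, held no decamer. A pair of decamers at most 13 bases apart matched in none of these windows and in 0.0731% of all. The CCAAT box (CCAAT, either strand) matched in 8 of the 10 windows, against 37.4% of all. Below, capitals mark decamers and CCAAT boxes (ATTGG where the box lies on the other strand), and bases inside exons are left out. The *Sesn1* stretch is chr10:41887189-41887438 (plus strand, an internal start), that of *Sesn2* chr4:132510502-132510706 (minus), *Sesn3* chr9:14276051-14276300 (plus, downstream of the first annotated start), *Ddit4* chr10:59951835-59952020 (minus), *Polk* chr13:96519188-96519437 (minus, an internal start) and *Tigar* chr6:127109558-127109802 (minus). *Tigar* and *Sesn3*, which were not called, are shown beside called genes for comparison, and the *Polk* stretch holds no CCAAT box.
Sesn1: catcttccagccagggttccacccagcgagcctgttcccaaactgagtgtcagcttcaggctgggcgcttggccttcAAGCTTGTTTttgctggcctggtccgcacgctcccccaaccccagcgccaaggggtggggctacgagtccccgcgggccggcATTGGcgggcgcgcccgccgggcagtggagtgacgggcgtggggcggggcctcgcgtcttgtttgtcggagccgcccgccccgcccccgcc
Sesn2: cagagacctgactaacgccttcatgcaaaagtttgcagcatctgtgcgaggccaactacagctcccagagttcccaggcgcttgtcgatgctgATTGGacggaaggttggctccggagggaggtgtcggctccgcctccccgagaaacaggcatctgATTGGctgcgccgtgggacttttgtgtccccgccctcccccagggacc
Sesn3: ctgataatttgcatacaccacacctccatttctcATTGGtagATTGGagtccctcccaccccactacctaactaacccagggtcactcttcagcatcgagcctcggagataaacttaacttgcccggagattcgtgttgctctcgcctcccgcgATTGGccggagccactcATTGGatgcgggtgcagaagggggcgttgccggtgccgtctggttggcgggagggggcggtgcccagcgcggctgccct
Ddit4: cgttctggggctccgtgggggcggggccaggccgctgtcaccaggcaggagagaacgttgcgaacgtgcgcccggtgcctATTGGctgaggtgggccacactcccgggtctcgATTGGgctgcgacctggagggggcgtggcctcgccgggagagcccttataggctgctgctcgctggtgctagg
Polk: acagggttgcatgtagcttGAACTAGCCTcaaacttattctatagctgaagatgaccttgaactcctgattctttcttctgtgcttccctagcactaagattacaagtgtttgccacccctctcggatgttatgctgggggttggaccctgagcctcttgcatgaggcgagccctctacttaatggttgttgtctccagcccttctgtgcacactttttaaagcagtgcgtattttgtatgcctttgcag
Tigar: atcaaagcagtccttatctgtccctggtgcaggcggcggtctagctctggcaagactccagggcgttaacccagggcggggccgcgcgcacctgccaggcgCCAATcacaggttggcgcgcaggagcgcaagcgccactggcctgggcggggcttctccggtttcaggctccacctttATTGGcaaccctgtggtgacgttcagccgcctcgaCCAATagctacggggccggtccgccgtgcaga
In these sequences the decamer of *Sesn1* begins at position -173 from its start and that of *Polk* at position -231. *Tigar* holds 3 CCAAT boxes, against 4 in *Sesn3* and 2 each in *Sesn2* and *Ddit4*. The ATF4 composite element (TGATGNAA) matched in 1 window, that of the internal start of *Polk*, against 3.97% of all windows. The FoxO element (TGTTTAC) matched in 1, of *Sesn1*, against 3.65%. The hypoxia element core (ACGTG) matched in 2 windows, of *Ddit4* and *Aen*, against 19.6%. The E-box (CACGTG), which contains that core, matched in 1 window, of *Aen*, against 7.15%, and the GC box (GGGCGG) in 8, against 35.7%. A match is a description of the letters and not evidence of binding.

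To ask whether these genes changed with loss of hnRNPL, each was read from a limma fit over 17640 genes whose average was 10 normalized counts or more (read counts divided by a size factor for each library), and all 10 passed that filter. A gene was called when it changed at least 1.5-fold with an adjusted p below 0.1 over all genes tested. *Zmat3*, *Ddit4*, *Sesn2*, *Polk* and *Sesn1* rose, so that 5 of the 10 were called higher, against 7.28% of all genes tested. The 10 genes were chosen with earlier results of these data known, so this count is not independent evidence of direction. None was called lower by limma, edgeR or DESeq2, against 4.08% of all genes by limma, and 0 of the 10 were lower at an unadjusted p under 0.05. At that unadjusted p, 7 of the 10 were higher, and of all 17640 genes tested 2547 were higher and 2283 lower. In 7 of the 10 every hnRNPL-deficient library lay above every WT library, which held for 17.7% of all genes tested, and in 2 (*Tigar* and *Xpc*) every one lay below, which held for 16.3%. The median log2 fold change of the 10 was 0.63, against -0.03 over all genes tested. *Sesn3* and *Aen* had an adjusted p below 0.1 but changed less than 1.5-fold, and *Ddb2*, *Xpc* and *Tigar* passed neither criterion. The plot of values by library shows the 10 genes side by side.

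**Figure D1:**
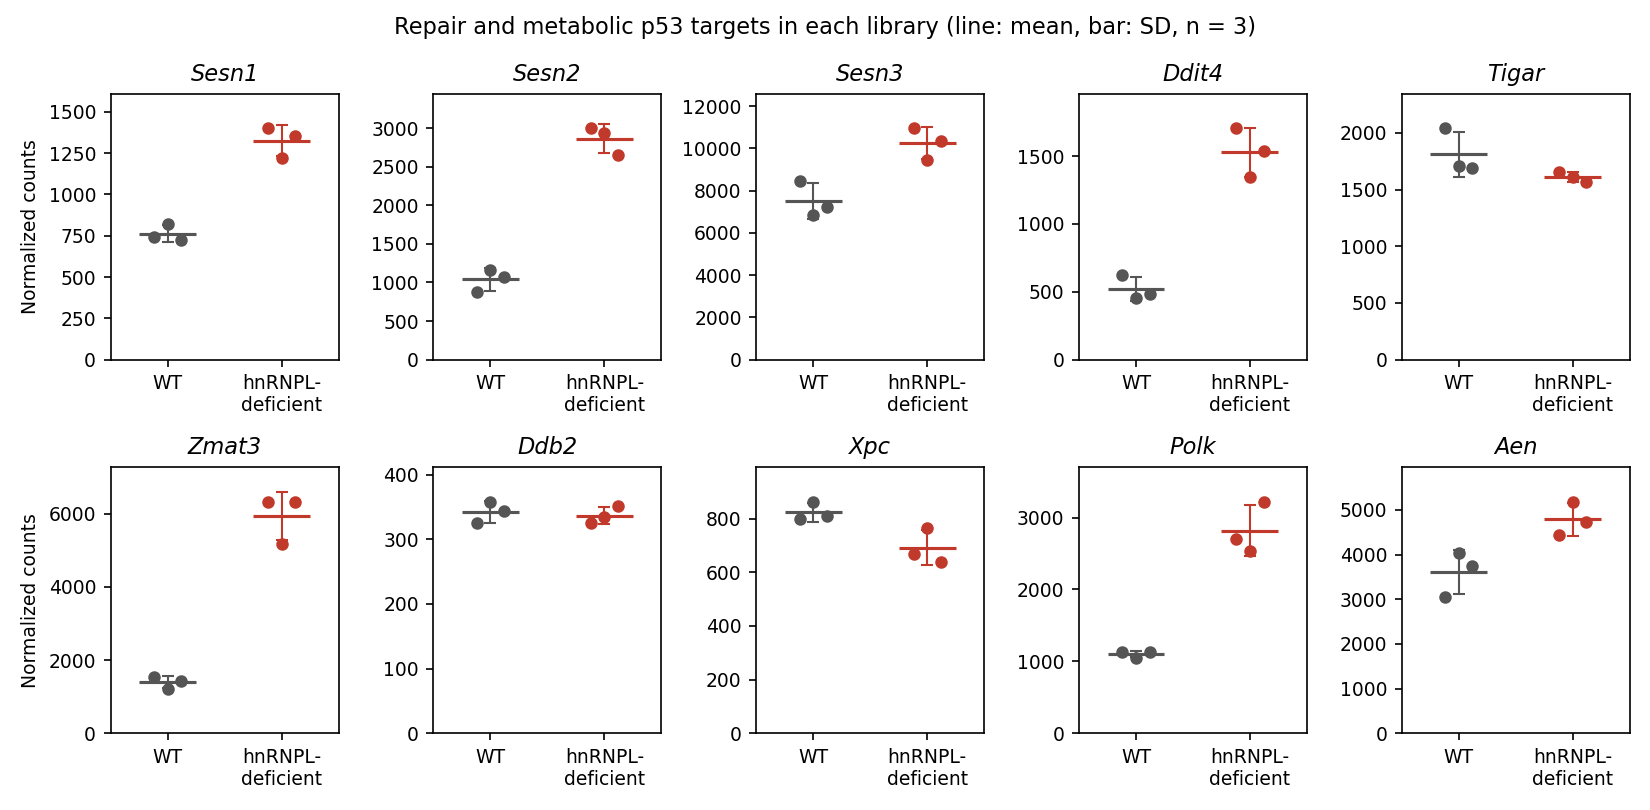
Normalized counts (vertical axes, from 0) of the 10 genes in each of 3 WT (grey) and 3 hnRNPL-deficient (red) libraries, 1 point per library, with the group mean (line) and SD (bar). *Zmat3*, *Ddit4*, *Sesn2*, *Polk* and *Sesn1* sit well above WT, while *Ddb2* overlaps it.

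Among the sestrins, *Sesn2* rose most. In WT libraries 1, 2 and 3 *Sesn2* was at 882, 1163 and 1074 normalized counts, against 2999, 2942 and 2649 in hnRNPL-deficient libraries 1, 2 and 3. Every hnRNPL-deficient value was more than double the highest WT value. The mean went from 1040 ± 144 to 2863 ± 187 (SD, n = 3 each), with a log2 change of 1.47 (SE 0.129, 95% interval 1.17 to 1.76, adjusted p = 0.000528 from limma). *Sesn1*, the paralog first described as a p53-induced gene, had 743, 819.7 and 723 in WT and 1400.1, 1219 and 1353 in hnRNPL-deficient libraries. The groups were well apart, with a log2 change of 0.80 (SE 0.118, 95% interval 0.53 to 1.06, adjusted p = 0.0049 from limma). *Sesn3*, known mainly as a FoxO target, had 8455.5, 6828 and 7219 in WT and 10951, 9465 and 10343 in hnRNPL-deficient libraries. WT library 1 came closest to the hnRNPL-deficient values without reaching them. Its log2 change of 0.45 (SE 0.111, 95% interval 0.20 to 0.71, adjusted p = 0.0348 from limma) was under 1.5-fold, and its adjusted p exceeded the threshold when hnRNPL-deficient library 1 (0.11) or either WT library 2 (0.131) or 3 (0.125) was dropped.

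The total of sestrin mRNA went from 9302 ± 682 to 14440 ± 866 normalized counts (SD, n = 3 each), from WT values of 10080.0, 8810.4 and 9015.5 to 15350, 13626 and 14345. On the log2 scale the total differed by 0.64 (two-sided exact permutation p = 0.1, the smallest that 3 against 3 allows). To compare the paralogs, counts were divided by the length of all annotated exons (3.98 kb for *Sesn1*, 3.48 kb for *Sesn2* and 15.27 kb for *Sesn3*). Per kilobase, *Sesn2* made up 25.5, 33.9 and 32.1% of sestrin mRNA in WT libraries and 44.7, 47.8 and 42.8% in hnRNPL-deficient libraries. The share of *Sesn3* went from 55.7, 45.3 and 49.1% to 37.1, 35.0 and 38.1%, while that of *Sesn1* stayed between 17.3 and 20.8% in every library. *Sesn2* thus passed *Sesn3* per kilobase in each hnRNPL-deficient library. The log2 ratio of *Sesn1* to *Sesn3* was -3.30 ± 0.226 in WT and -2.95 ± 0.0168 in hnRNPL-deficient libraries, a difference of 0.34 in which the groups did not overlap (exact permutation p = 0.1, adjusted p = 0.133 over 4 such comparisons). The shares of *Sesn2* and *Sesn3* were not tested, as they were looked at after their values had been seen.

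**Figure D2:**
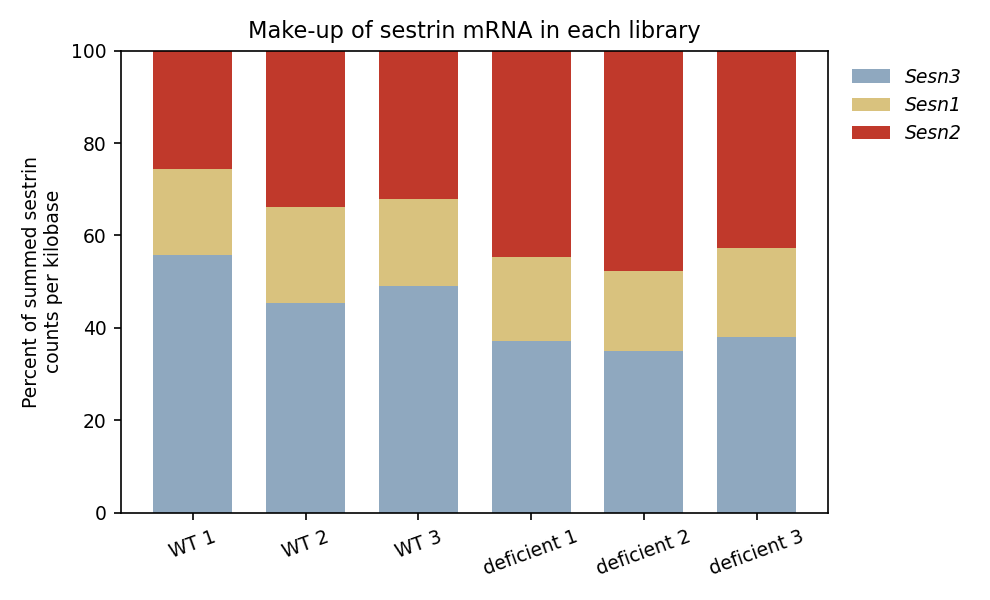
Share of each paralog in the summed sestrin normalized counts per kilobase of exon (vertical axis, percent), 1 bar per library. *Sesn2* holds 25.5 to 33.9% in the 3 WT libraries and 42.8 to 47.8% in the 3 hnRNPL-deficient libraries, and *Sesn3* is the largest part in WT alone.

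*Ddit4*, the other mTORC1 inhibitor of the group, was at 624, 457 and 487 normalized counts in WT against 1706, 1343 and 1536.5 in hnRNPL-deficient libraries. The lowest hnRNPL-deficient library was more than double the highest WT library. The mean rose from 523 ± 89.4 to 1528 ± 182 (SD, n = 3 each), with a log2 change of 1.55 (SE 0.158, 95% interval 1.19 to 1.91, adjusted p = 0.00105 from limma). The rises of *Ddit4* and *Sesn2* did not differ beyond the spread between libraries. Their log2 ratio (*Sesn2* over *Ddit4*) was 1.00 ± 0.443 in WT and 0.91 ± 0.192 in hnRNPL-deficient libraries, a difference of -0.09 (exact permutation p = 0.8). *Tigar*, which acts on glucose metabolism, had 2041, 1708 and 1689 in WT and 1656, 1614 and 1565 in hnRNPL-deficient libraries. WT libraries 2 and 3 lay close to the hnRNPL-deficient values, and the log2 change was -0.16 (SE 0.112, 95% interval -0.42 to 0.09, adjusted p = 0.386 from limma). The upper bound of that interval lies below a 1.5-fold rise.

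*Zmat3* had the largest change of the 10 genes. It was at 1546, 1218 and 1432 normalized counts in WT against 6314, 5177 and 6327 in hnRNPL-deficient libraries, at least 3 times the highest WT value in each. The mean rose 4.25-fold, from 1399 ± 166 to 5939 ± 659.8 (SD, n = 3 each), with a log2 change of 2.09 (SE 0.129, 95% interval 1.79 to 2.38, adjusted p = 8.94e-05 from limma). This log2 fold change exceeded that of 99% of all genes tested, against 97.8% for *Ddit4*, 97.4% for *Sesn2*, 96.9% for *Polk* and 91.9% for *Sesn1*. *Aen* had 3059, 4034 and 3742 in WT and 4450.0, 5186 and 4726 in hnRNPL-deficient libraries. The groups did not overlap, although WT library 2 and hnRNPL-deficient library 1 lay near each other. The log2 fold change of *Aen* was 0.41 (standard error 0.125, 95% interval 0.13 to 0.70, adjusted p = 0.069 from limma), under 1.5-fold. Its adjusted p was 0.157 by edgeR and 0.165 by DESeq2 on 5 libraries, and dropping 1 library at a time gave 0.083 (WT library 2 dropped) to 0.186 (hnRNPL-deficient library 2 dropped).

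The DNA damage genes differed among themselves. *Polk*, the translesion polymerase, was at 1128, 1047 and 1129.5 normalized counts in WT against 2702, 2534 and 3221 in hnRNPL-deficient libraries. The WT values were close together, and every hnRNPL-deficient value was more than double them. The mean rose from 1101.5 ± 47.2 to 2819 ± 358 (SD, n = 3 each), with a log2 change of 1.35 (SE 0.119, 95% interval 1.08 to 1.62, adjusted p = 0.000536 from limma). The damage sensors *Ddb2* and *Xpc* were not called. *Ddb2* had 325, 358 and 343 in WT and 325, 334 and 351 in hnRNPL-deficient libraries, and the groups overlapped throughout. Its log2 fold change was -0.02 (95% interval -0.35 to 0.30, adjusted p = 0.935 from limma), so that the interval holds no 1.5-fold change in either direction. *Xpc* had 797, 863 and 811 in WT and 669, 764 and 639 in hnRNPL-deficient libraries, a log2 fold change of -0.26 (95% interval -0.54 to 0.03, adjusted p = 0.226 from limma). All 3 hnRNPL-deficient values of *Xpc* were below all WT values, with hnRNPL-deficient library 2 nearest to WT. The log2 ratio of *Ddb2* to *Xpc* was -1.27 ± 0.0278 in WT and -1.03 ± 0.165 in hnRNPL-deficient libraries, a difference of 0.23 (exact permutation p = 0.1, adjusted p = 0.133 over the 4 comparisons).

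**Figure D3:**
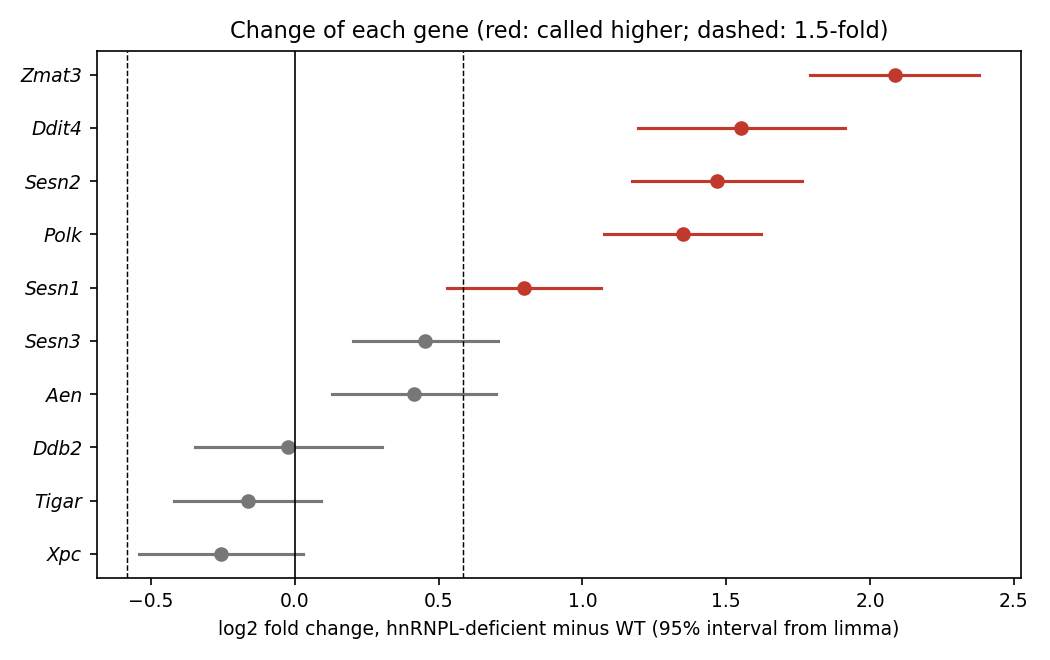
log2 fold change (hnRNPL-deficient minus WT, horizontal axis) of each gene with its 95% interval from limma, ordered by size, with genes called higher in red and dashed lines at 1.5-fold in each direction. The 5 called genes lie between 0.80 and 2.09, *Sesn3* and *Aen* lie above 0 but left of the line, and the intervals of *Ddb2*, *Tigar* and *Xpc* include 0.

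Levels were also set in order within each group, per kilobase of annotated exon. In WT the order was *Aen* (623 ± 86.3 normalized counts per kilobase), *Tigar* (496 ± 54.2), *Sesn3* (491 ± 55.6), *Sesn2* (299 ± 41.3), *Ddit4* (298 ± 50.9), *Polk* (198 ± 8.5), *Sesn1* (191 ± 12.9), *Xpc* (149.9 ± 6.31), *Ddb2* (125 ± 6.05) and *Zmat3* (122 ± 14.5; SD, n = 3). The values of neighbors in this order overlapped between *Aen* and *Tigar*, *Tigar* and *Sesn3*, *Sesn2* and *Ddit4*, *Polk* and *Sesn1*, and *Ddb2* and *Zmat3*, so that their order is not set by these libraries. In hnRNPL-deficient cells *Ddit4* (871 ± 103), *Aen* (825 ± 64.1) and *Sesn2* (824 ± 53.9) led with overlapping values, followed by *Sesn3* (672 ± 48.9). *Zmat3* (519 ± 57.7) and *Polk* (508 ± 64.5) overlapped each other and lay above *Tigar* (441 ± 12.4) and *Sesn1* (333 ± 23.6). *Xpc* (126 ± 11.9) and *Ddb2* (123 ± 4.87) were last. *Zmat3* overlapped *Ddb2* at the bottom of the WT order and lay above *Ddb2* in every hnRNPL-deficient library. The lengths cover all annotated exons, and which of them these cells use was not tested.

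**Figure D4:**
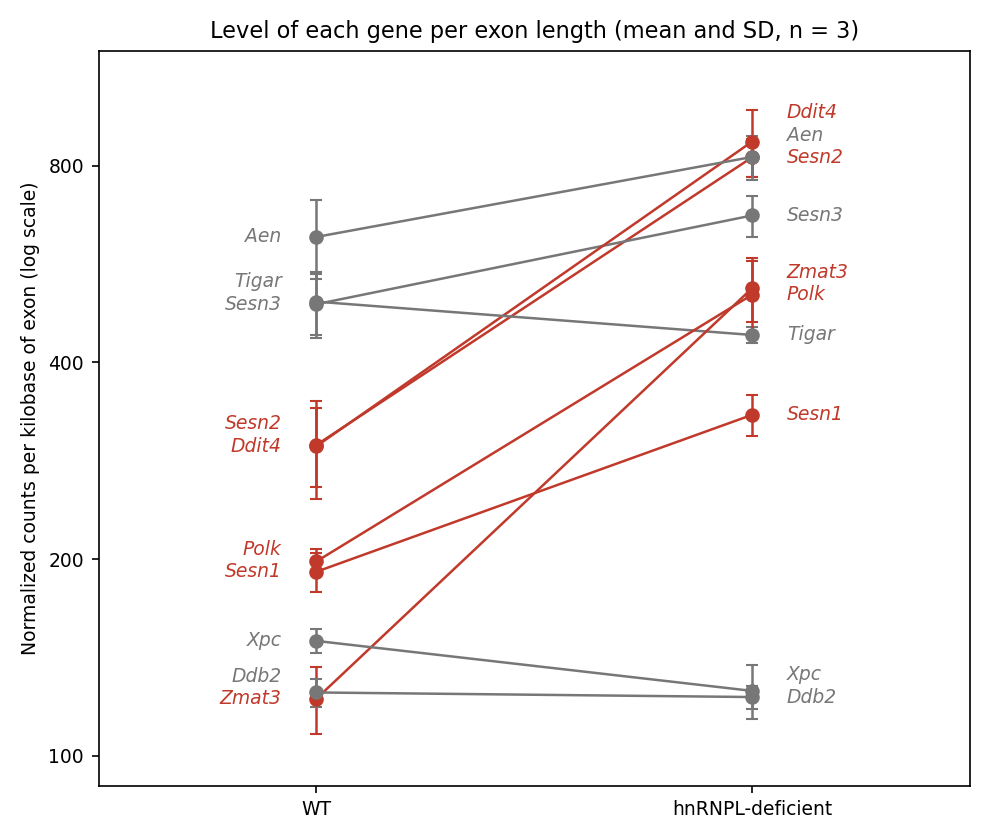
Mean level of each gene in normalized counts per kilobase of exon (vertical log axis) in WT and hnRNPL-deficient libraries, with SD over 3 libraries, and genes called higher in red. *Zmat3* climbs from 122 to 519, *Ddit4* and *Sesn2* pass *Sesn3* and *Tigar*, and *Xpc* and *Ddb2* stay at the bottom.

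The same fit was read for 26 other p53 targets, of which 23 were tested (*Eda2r*, *Perp* and *Gdf15* were too low). Of these, 14 rose, against 7.28% of all genes tested, with a median log2 fold change of 0.74. By limma 0 fell, against 4.08% of all genes tested, with 0 lower at an unadjusted p under 0.05 and 0 lower by edgeR or DESeq2. At that unadjusted p, 2283 of all 17640 genes tested were lower. The largest rises were those of *Phlda3*, which encodes a repressor of AKT (62.4 ± 16.7 to 1326 ± 78.8 normalized counts, log2 fold change 4.42, adjusted p = 3.18e-05 from limma), and *Plk2*, a stress-induced kinase (35.8 ± 10.4 to 589.6 ± 58.5, log2 fold change 4.03). *Psrc1*, which encodes a spindle protein, went from 99.8, 126 and 105 in WT to 1416, 1605 and 1343 (log2 fold change 3.71). *Cdkn1a*, which encodes the CDK inhibitor p21, had a log2 fold change of 3.34. Each of these exceeded the change of *Zmat3*. The study names *Cdkn1a* from these same libraries, and the list was drawn up with results of these data known, so its count is not independent evidence of direction. Among 10 tested p53 regulators, *Atm* (log2 fold change -0.64, adjusted p = 0.0088 from limma) and *Chek1* (-0.66, adjusted p = 0.0419), the damage-signaling kinases, fell, and *Trp53* was not called (-0.26, adjusted p = 0.237). These values are of mRNA. By western blot the study reports more p53 protein in hnRNPL-deficient B cells, both resting and activated. Over all genes tested, 4.08% were called lower. *Atm* was under 1.5-fold when WT library 1 was dropped (-0.54), with quantile normalization (-0.49) and with equal library totals (-0.58). *Chek1* lost its call when WT library 1 (-0.50), hnRNPL-deficient library 2 (adjusted p = 0.105) or hnRNPL-deficient library 3 (-0.57) was dropped, by edgeR (adjusted p = 0.106) and without the variance trend in limma (adjusted p = 0.102).

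On the nutrient-sensing side, the partners of the sestrins and REDD1 were read beside the 7.28% of all genes called higher. Of 24 GATOR, Rag and Ragulator genes, 2 were called, both higher, a share near that background, and the median log2 fold change over the list was -0.05. *Castor2*, the paralog of the arginine sensor gene *Castor1*, whose products bind GATOR2 as sestrins do, rose from 265 ± 11.3 to 622 ± 58.0 normalized counts (log2 fold change 1.22, adjusted p = 0.00201 from limma). *Nprl3*, a subunit of the mTORC1 inhibitor GATOR1, had a log2 fold change of 0.59 (adjusted p = 0.0177), which was under 1.5-fold when WT library 1 (0.51) or hnRNPL-deficient library 2 (0.54) was dropped, by edgeR (0.57) and DESeq2 (0.55), which were both run without the latter library, and with a covariate for *Xist* (0.58). Of 13 TSC, Rheb and AMPK genes, *Prkaa2*, a catalytic subunit of the energy sensor AMPK, rose from 49.2 ± 19.7 to 122 ± 21.2 (log2 fold change 1.34, adjusted p = 0.03 from limma), and the list's median was 0.13. The gene of the other catalytic subunit, *Prkaa1*, had far higher counts (5570 ± 941 in WT, 6478 ± 640 in hnRNPL-deficient libraries). It was not called (log2 fold change 0.23, adjusted p = 0.327 from limma). Of 9 mTORC1 core genes 0 were called by limma, 3 were lower at an unadjusted p under 0.05, and DESeq2 called 1 lower and edgeR 0. At that unadjusted p, 2283 of all 17640 genes tested were lower.

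Other known inducers of *Sesn2*, *Sesn3* and *Ddit4* were read in the same way, beside 7.28% of all genes called higher and 4.08% called lower. At an unadjusted p under 0.05, 2547 of all 17640 genes tested were higher and 2283 lower. Of 18 tested ATF4-dependent stress genes, *Asns*, asparagine synthetase, was higher (log2 fold change 0.71, adjusted p = 0.0615 from limma), while *Pycr1* (-0.87) and *Mthfd2* (-0.64), enzymes of proline synthesis and one-carbon metabolism, and the transcription factor *Atf3* (-0.75) fell. The list's median was -0.28, and 3 of its genes were higher and 9 lower at an unadjusted p under 0.05. Calls by edgeR were 0 higher and 3 lower, and those by DESeq2 1 higher and 3 lower. *Asns* lost its call when any library but WT library 2 was dropped (adjusted p from 0.109 to 0.164 in limma), by edgeR (0.133) and without the variance trend (0.127). *Atf3* lost its call when WT library 2 (adjusted p = 0.102 in limma) or hnRNPL-deficient library 2 (-0.58) was dropped and by edgeR (-0.55) and DESeq2 (-0.57), both run without the latter library, and *Mthfd2* was under 1.5-fold when hnRNPL-deficient library 3 was dropped (-0.54) and with quantile normalization (-0.56). Of 19 FoxO targets and factors, 6 rose and 1 fell, with a median of 0.29, and 9 were higher and 2 lower at an unadjusted p under 0.05. *Ccr7*, a homing receptor, had a log2 fold change of 0.96, *Ccng2*, an atypical cyclin, 0.90, *Foxo3* itself 0.89, and *Bcl2l11*, which encodes the death protein BIM, 0.87. The gene that fell was *Cat*, which encodes catalase (log2 fold change -0.74, adjusted p = 0.00828 from limma), named here after its value was seen. The study names *Foxo3* from these libraries. Of 15 hypoxia targets, *Ndrg1* (1.53), *Mxi1* (1.07) and *Bnip3l* (0.82) rose and *Pdk1* (-0.96), which restrains pyruvate oxidation, fell, with a median of 0.19. The list went both ways, with 4 higher and 5 lower at an unadjusted p under 0.05. By edgeR and by DESeq2, 3 of these targets were called higher and 2 lower. *Pdk1* fell from 2636 ± 539 to 1342 ± 198 normalized counts.

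Among the repair partners of *Ddb2* and *Xpc*, 0 of 26 nucleotide excision repair genes were called by limma, while edgeR called 1 higher and DESeq2 1 lower. At an unadjusted p under 0.05, 5 of the 26 were higher and 4 lower, beside 2547 higher and 2283 lower of all 17640 genes tested. The median log2 fold change of the 26 was -0.02, close to the -0.03 of all genes. Of 17 translesion synthesis genes, the list to which *Polk* is related, 2 were called, both lower, against 4.08% of all genes tested, and the median was -0.06. *Zranb3*, a fork-remodeling translocase, fell from 698.5 ± 58.9 to 372 ± 3.02 normalized counts (log2 fold change -0.90, adjusted p = 0.00469 from limma). *Poln*, a polymerase at low counts (81.3 ± 8.67 to 37.9 ± 18.8, log2 fold change -1.18, adjusted p = 0.0717), lost its call when any library but hnRNPL-deficient library 3 was dropped (adjusted p from 0.116 to 0.207 in limma), by edgeR (0.227) and DESeq2 (0.179), with equal library totals (0.101) and with the *Xist* covariate (0.107). None of the 17 was called higher by limma, edgeR or DESeq2, and 3 were higher at an unadjusted p under 0.05. Of 14 tested enzymes around fructose bisphosphate and the pentose phosphate pathway, the steps that TIGAR influences, *Pfkl*, the liver-type phosphofructokinase, fell from 3994 ± 286 to 628 ± 51.3 (log2 fold change -2.67, adjusted p = 2.11e-05 from limma) and the list's median was -0.20. Of these enzymes 0 were higher and 4 lower at an unadjusted p under 0.05. None was called higher by edgeR or DESeq2, which called 1 and 2 lower. Of 9 tested exonucleases related to *Aen*, 0 were called by limma, edgeR or DESeq2, with 1 higher and 1 lower at an unadjusted p under 0.05 and a median of 0.01.

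**Figure D5:**
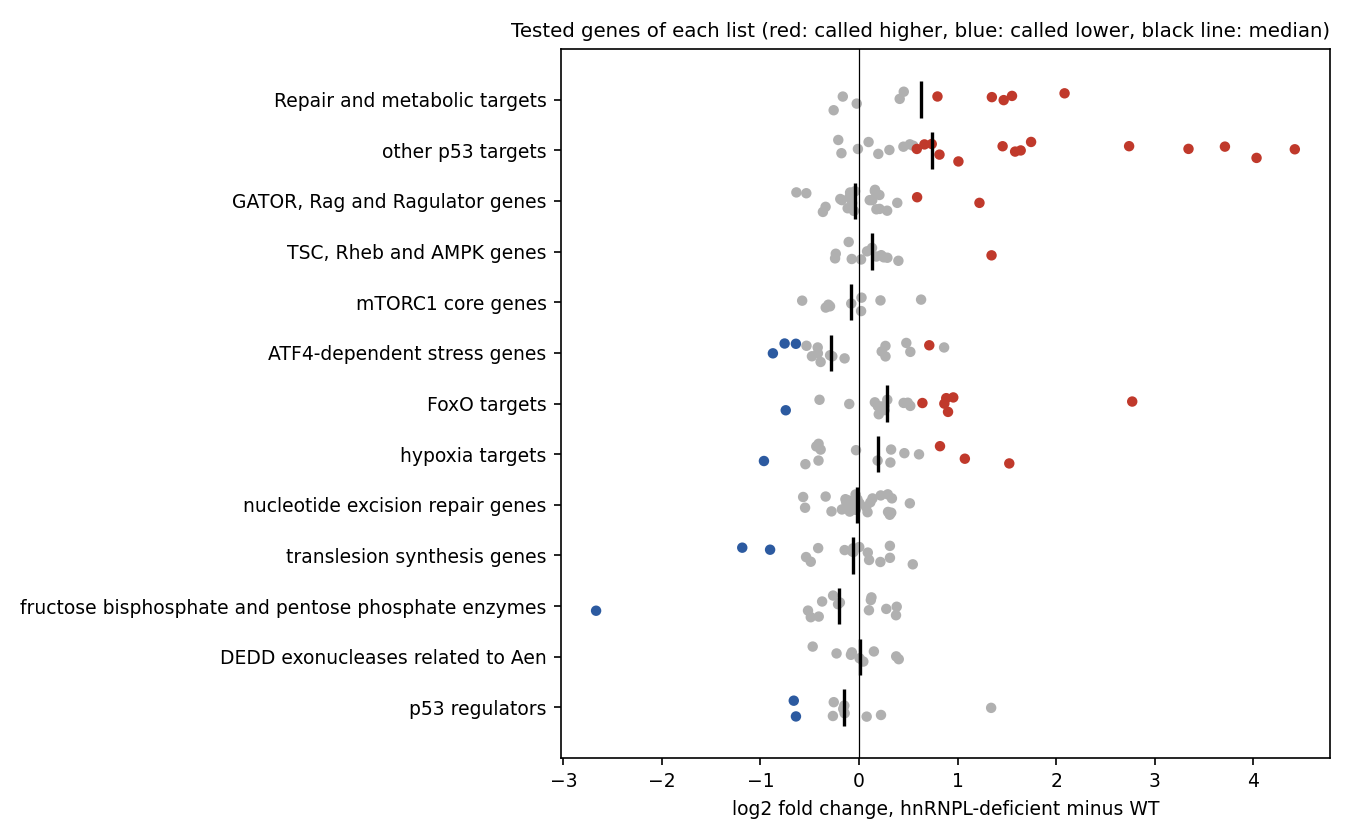
log2 fold change (hnRNPL-deficient minus WT, horizontal axis) of every tested gene in each list, 1 point per gene, with the list's median as a black line. The repair and metabolic targets (median 0.63) and the other p53 targets (0.74) lie to the right, while medians of the other lists lie between -0.28 and 0.29.

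Depth and cell make-up were checked for the libraries behind these values. Each library held between 40395186 and 75180749 reads assigned to genes, and the 10 genes had between 256 (*Ddb2*) and 12147 (*Sesn3*) reads in a library, so that counting error alone was at most 6.25% of a value. The share of counts on mitochondrially encoded genes was 5.57 to 6.77% in WT and 6.11 to 8.92% in hnRNPL-deficient libraries. The 9 B cell markers summed to 355117.5 to 448855 normalized counts in WT and 340609 to 419511 in hnRNPL-deficient libraries. Of 10 myeloid markers, 7 had a higher mean in hnRNPL-deficient libraries, and the list's sum was 644 to 785 in WT and 1764 to 1911 in hnRNPL-deficient libraries. Most of that rise came from *Adgre1* (236 to 315 in WT and 1217 to 1369 in hnRNPL-deficient). *Ly6c2* was at 39.5 to 58.8 in WT and 75.7 to 102.8 in hnRNPL-deficient libraries. *S100a8* and *S100a9* were at 0 in all libraries and *Lyz2* at 0 in 5 of 6 (2.02 in the other). The 6 stromal markers summed to 2644 to 2772.5 in WT and 3763 to 4479 in hnRNPL-deficient libraries, mostly from *Pecam1*, and 4 of the 6 had a higher mean in hnRNPL-deficient libraries. *Cdh5* was at 107 to 127 in WT and 268 to 360 in hnRNPL-deficient libraries, and *Col3a1* was at 0. The 9 T cell markers summed to 195 to 249 and 145 to 389.5, with *Cd3e* at 0 in all WT libraries, and 6 plasma cell markers to 33957 to 39571 and 33298.5 to 36361. Dendritic cell markers summed to 648 to 787 in WT and 637 to 685 in hnRNPL-deficient libraries, and megakaryocyte markers to 13.9 to 39.0 and 17.1 to 31.5. The sums were low but higher in every hnRNPL-deficient library for NK markers (28.3 to 39.5 in WT, 46.4 to 74.8 in hnRNPL-deficient) and erythroid markers (29.1 to 47.6 and 56.8 to 87.8). The part of these differences in the results was not tested. In these bulk samples, more RNA per cell and more cells with the RNA cannot be told apart.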

How the data were processed

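RNA-seq of GFP+ splenic B cells was used, with 3 WT and 3 hnRNPL-deficient replicates grouped by the submitters' labels. The authors trimmed reads with fastp 0.23.1, aligned them with STAR 2.7.9a to mm10, counted them per gene by strand with featureCounts on GENCODE, and deposited counts divided by DESeq2 1.38.2 size factors (normalized counts, a scaled signal). The deposited columns of the authors' own DESeq2 comparison (log2 fold changes with standard errors, the statistic as a score, p-values) were not used.

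Here, limma 3.58.1 (R 4.3.3, variance trend, no covariates) was applied to values transformed as log2(normalized count + 1). The pseudocount understates changes of low genes. All values in each library were whole multiples (within 0.01) of the smallest, so 100% of values gave whole reads. In hnRNPL-deficient library 2 that multiple is so close to 1 that an automated reading of its unit cannot tell reads from scaled values. Although its values met the same criterion, it was kept out of the count tests as a precaution, and edgeR 4.0.16 (quasi-likelihood, TMM) and DESeq2 1.42.0 were run on the other 5 libraries, a choice made after the values were seen, so that these tests differ from limma in both method and libraries. Ratios were tested by two-sided exact permutation. Adjusted p-values are Benjamini-Hochberg values from these fits. Exon lengths come from GENCODE M21 (GRCm38), an earlier release than the counting used, and promoter windows from RefSeq (GRCm38.p6). Each fit was tested on simulated data with known changes.

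The members, lists and tests were chosen with earlier results of these data known. Named genes are the 10 members, *Hnrnpl*, *Trp53*, all called genes of a list with at most 5 of them, and otherwise its 4 with the largest change at a mean of at least 50 normalized counts. For each called member, the 2 genes with the largest r were also named. *Cat*, *Prkaa1*, marker, overlapping and untested genes are named outside this rule. Alternatives covered pseudocounts, filters, scaling, variance settings, a replicate block, thresholds, count tests and leaving out each library. A covariate for *Xist*, whose level split each group into 2 libraries and 1, was added after the data were seen.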

Additional observations from a re-analysis of the deposited data

How the results depend on the processing

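Of the 10 genes, 5 were called higher and 0 lower in 18 of the 19 alternatives. The exception was the threshold of a 2-fold change with an adjusted p under 0.05, at which *Sesn1* was not called and 4 were higher. At that threshold 610 of all genes were higher and 216 lower, and 15 list genes were higher and 1 lower, against 1284, 719, 27 and 10. *Ddb2*, which was not called, changed sign with equal library totals (0.0319), by edgeR (0.0177), and when WT library 2 (0.0101) or hnRNPL-deficient library 1 (0.0026) was dropped, with a range of -0.0595 to 0.0101 over the 6 dropped libraries. The log2 ratio of *Sesn2* to *Ddit4* changed sign when WT library 2 was dropped, with a range of -0.334 to 0.0912 over the 6 dropped libraries. Dropping each library gave 850 to 1124 higher and 483 to 695 lower genes over the whole table, and the lowest counts came from dropping WT library 3. Equal totals gave 1421 higher and 601 lower genes, and quantile normalization 1095 and 811.

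Replicate numbers are shared by the groups, but same-numbered libraries deviated together unevenly (correlations of 0.43, 0.32 and 0.066), the last too low to take the numbers as pairs. In 5 of the 6 libraries the best partner had the same number, and the exception was WT library 3, which correlated best with hnRNPL-deficient library 2, the other library with high *Xist*. With the replicate block 1755 genes were higher and 1018 lower, 5 of the 10 genes were again called higher, and the exact permutation p was 0.25 for the sestrin total and for the ratios of *Sesn1* to *Sesn3* and *Ddb2* to *Xpc*, and 0.75 for *Sesn2* to *Ddit4*. A block leaves the differences themselves as they are in this balanced design. The smallest exact p is 0.1 for 3 against 3 libraries and 0.25 for 3 pairs.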

Other observations

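Genes whose levels followed those of the called targets most closely over the 6 libraries were listed as a description. For *Zmat3* they were *Trp53inp1* (Pearson r = 0.9987), another p53 target, and *Gm47484* (0.9986). For *Sesn1* they were *Nfkbiz* (0.9989), an atypical IκB protein gene, and *Sft2d2* (0.9989). For *Sesn2* they were *Gm3417* (0.9985) and *Tcte3* (0.9981), for *Ddit4* *Ccpg1os* (0.9989) and *Pqlc3* (0.9981), and for *Polk* *Gm20257* (0.9985) and *Tsga10* (0.9985). Such values are common here, since the difference between the groups is in them: of 13881 genes compared, 551 to 615 had an r of at least 0.95 with each of the 5 targets.

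Of 44 tested genes within 250 kb of *Zmat3*, *Ddit4*, *Sesn2*, *Polk* or *Sesn1*, 2 were called higher (1 each near *Sesn1* and *Zmat3*) and 2 lower (both near *Sesn2*), beside 7.28% higher and 4.08% lower of all genes tested. *Sesn2* overlaps *Gm12981* on its own strand, which had 3.48 to 33.6 normalized counts in WT and 38.4 to 48.0 in hnRNPL-deficient libraries, and *Sesn1* overlaps *9930024M15Rik* on its own strand, at 31.3 to 87.9 and 35.2 to 147. How reads in the shared stretches were assigned was not tested. *Ddb2*, *Polk* and *Tigar* overlap genes on the other strand, which strand-specific counting keeps apart.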
